A study of Mus musculus with 2 samples.

Results

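The genes described here encode enzymes that oxidise, reduce and conjugate steroids, sterols, fatty acids and foreign compounds: the cytochromes P450, their electron donor Por, the hydroxysteroid dehydrogenases (Hsd), the UDP-glucuronosyltransferases (Ugt), the sulfotransferases (Sult) and the aldo-keto reductases of family 1 (Akr1). They were taken by name, as every probe whose gene symbol in the array files begins with one of these stems. Cyp11a1, Cyp17a1, Cyp51, Hsd17b3, Akr1b7 and the Cyp26 genes were left out. The rule found 131 probes for 99 of the 11142 genes on the array.

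RNA came from Sertoli cell preparations of male Swiss mice 3 months old. Sertoli cells are the supporting cells of the seminiferous tubule, in which germ cells develop. The control mice received no treatment, and the others received busulphan, an alkylating drug toxic to dividing germ cells, at 25 mg/kg 1 month before collection. The cells were the fraction held on a cell strainer after enzymatic digestion of the testis and were never cultured, and the labels do not give the number of mice per preparation. Each preparation was hybridised to 1 single-colour Agilent array, so no difference has a replicate check, no p-value is given, and preparation, labelling and group cannot be told apart.

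Cytochromes P450 are haem enzymes that insert 1 atom of oxygen into a substrate, and most sit in the endoplasmic reticulum, where Por passes them electrons from NADPH. Families 1 to 3 act mainly on drugs and other foreign compounds, family 4 on fatty acids and eicosanoids, and the higher families on sterols, steroids, bile acids and vitamin D. Hydroxysteroid dehydrogenases interconvert active and less active steroids, and Ugt and Sult enzymes attach a sugar acid or a sulfate that makes a product soluble. In the testis the best known of these enzymes serve androgen and oestrogen metabolism, while many others are known chiefly from liver and kidney.

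Values are background-corrected fluorescence signals in arbitrary units, as deposited, and folds are taken after each array was divided by its 75th percentile, a signal of 1046 on the control array and 905 on the busulphan array. Spot brightness depends on the probe, so levels are not compared between genes. A gene is called higher or lower at a 2-fold difference (a log2 ratio of 1 either way), a rule of size and not a test. Where a probe was well above background on only 1 array, the fold is a bound, written as at least so many fold. A bound below 2-fold is counted as within 2-fold, though the difference could be larger. The scanner software's own error of a log2 ratio had a median of 0.21 over the enzyme genes, which covers the reading of a spot and not variation between animals or preparations.

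The arrays had 12302 and 12064 of 15208 probes well above background, control and busulphan respectively. Of 16 Sertoli cell markers compared, 15 were at least 2-fold higher after busulphan, and the summed signal of the 15 without a saturated spot, all but Clu, went from 4310.1 to 54026. All 8 spermatid markers compared were lower, 6 of them as bounds because the control spots were saturated, and their summed signal went from 450410 to 35345. Of 7 spermatocyte markers 6 were lower, and of 8 macrophage markers 6 were higher, their summed signal going from 1070.4 to 5486. The Leydig list, 2 of whose genes are Hsd3b enzymes described here, had 9 genes compared, 3 higher, 1 lower and 5 within 2-fold. Its summed signals of 4915 in the control and 4925 after busulphan held opposite differences, such as Star from 202 to 2043 and Fdx1 from 3669.9 to 1749. Fdx1 stayed within 2-fold, and its other probe went the opposite way, from 1226 to 2664. Lhcgr, the receptor that defines these cells, was well above background on neither array. Of the hepatocyte markers on the array, Alb and Apoa1 were well above background only after busulphan, with signals of 10.5 and 8.62, and Ttr on neither array. The part of these cell types in the differences that follow was not tested, and fewer cells of a type cannot be told apart from less RNA per cell.

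Of the 99 enzyme genes, 78 had a probe well above background on at least 1 array, 22 of them at least 2-fold higher and 28 at least 2-fold lower after busulphan. These are 28.2% and 35.9% of the genes compared, beside 31.3% and 29.5% of all 9441 genes compared on the arrays. With normexp background correction, which draws dim spots together, 17 were higher and 15 lower, 21.8% and 19.2%, beside 24.6% and 22.7% of all genes. The share of lower genes was therefore above that of all genes in the first case and below it in the second. The median log2 ratio was -0.33 over the enzymes and 0.07 over all genes. With the arrays scaled to spike-in RNA, which moved the median of all genes by -0.88, the split was 9 higher and 43 lower, the latter 55.1% of the genes compared, beside 16.2% of all genes higher and 46.4% lower. Among the 59 enzyme genes measured on both arrays, 21 were higher and 21 lower, 35.6% each, beside 32.9% and 28.2% of all 8407 such genes. The median log2 ratio was 0.16 over these enzymes and 0.16 over all such genes. The 19 bounds were uneven, with 16 genes well above background in the control alone and 3 after busulphan alone. Over all genes 344 bounds were well above background after busulphan alone. Another 690 were so in the control alone or had a saturated spot on 1 array, so these did not all point to the control. Several folds below rest on 1 dim spot and shrank with normexp correction, the log2 ratio of Cyp2a12 to -3.70, of Cyp2f2 to -1.23, of Hsd17b2 to -1.22 and of Hsd17b1 to 2.28.

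**Figure D1:**
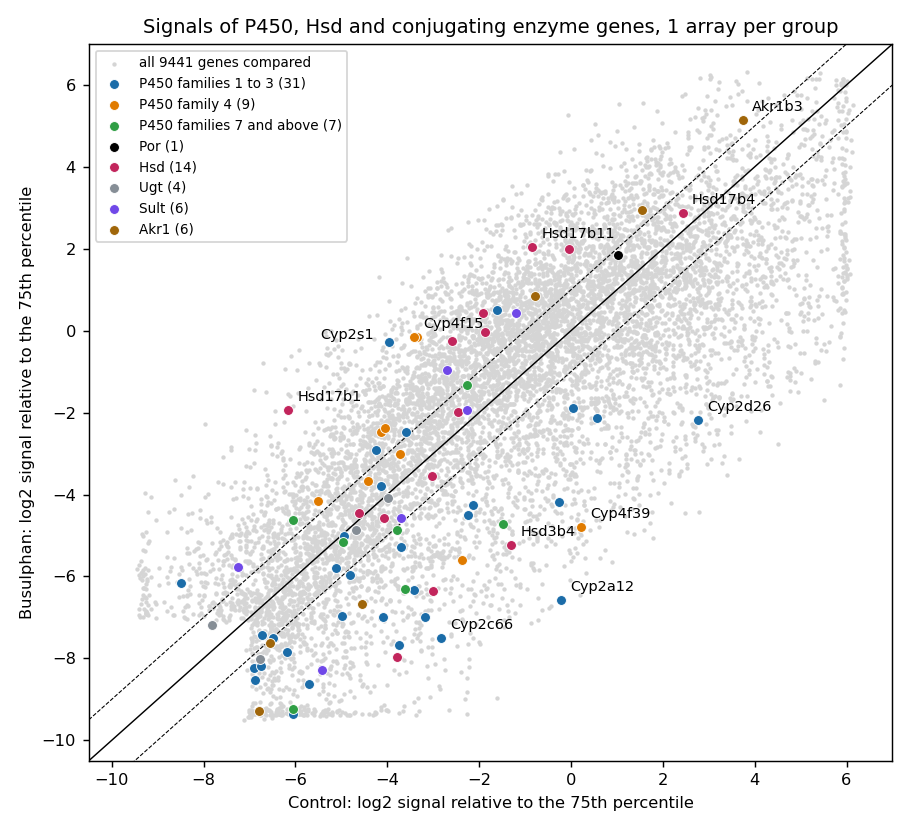
Scaled signals of the 78 enzyme genes compared, coloured by role, over all 9441 genes compared (grey), with the control array on the horizontal axis and the busulphan array on the vertical axis, both as log2 signal relative to the array's 75th percentile. The solid line marks equal values and the dashed lines a 2-fold difference. Cyp2a12 and Cyp2d26 lie far below the lines and Hsd17b1 and Cyp2s1 far above, with n = 1 array per group.

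The spots brightest among these genes in the control were those of Akr1b3, Cyp2d26, Hsd17b4, Akr1a4 and Por. After busulphan they were those of Akr1b3, Akr1a4, Hsd17b4, Hsd17b11 and Hsd17b10. The Cyp2d26 spot outshone 92.1% of all probes in the control and 54.8% after busulphan. Hsd17b4, a peroxisomal enzyme of fatty acid oxidation, had signals of 5645 and 6591, a log2 ratio of 0.43.

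Of 40 genes of the drug-metabolising P450 families 1 to 3 on the array 31 were compared, of which 17 were lower and 4 higher, where 29.5% of all genes were lower. Another 10 were called neither way, of which 3 were measured within 2-fold on both arrays. The rest were bounds below 2-fold, which do not exclude a larger difference. The median log2 ratio, bounds included, was -1.15. With normexp correction 10 were lower and 2 higher, beside 22.7% and 24.6% of all genes, and the median log2 ratio was -0.13. Of the 20 measured on both arrays 13 were lower, beside 28.2% of all such genes. Most of the lower genes belonged to family 2, where 14 of 24 were lower, and the rest to family 3, where 3 of 5 were. Beside this, all 8 spermatid and 6 of 7 spermatocyte markers compared were lower too. The 5 spermatocyte markers without a saturated spot had summed signals of 83853 in the control and 10206 after busulphan. The part of these cell types in the lower P450 signals was not tested.

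Cyp2a12, which rehydroxylates bile acids in mouse liver, had a signal of 900.1 in the control and 9.53 after busulphan, 81.7-fold lower. With normexp correction its log2 ratio of -6.35 became -3.70, while that of Cyp2d26 was -4.63. All 4 Cyp2d genes, relatives of the human drug-metabolising CYP2D6, were lower, where 29.5% of all genes were. Cyp2d26 went from 7124 to 199.6, 30.9-fold lower, and Cyp2d10 from 871 to 49.96, 15.1-fold lower. Cyp2d9, a male-specific steroid hydroxylase of mouse liver, went from 1541 to 205, and Cyp2d22 from 237 to 47.4, which were 6.49-fold and 4.34-fold lower. The 4 genes span 416.3 kb at chr15:82204377-82620634 (mm9).

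Cyp2d9 was read by 2 probes that overlap, and they gave log2 ratios of -2.70 and -2.61. Their sequences are shown with the 27 bases they share in capitals, at chr15:82286832-82286891 and chr15:82286799-82286858 (mm9, plus strand). The shared bases make them repeat readings of nearly 1 target rather than independent ones.
Cyp2d9, first probe: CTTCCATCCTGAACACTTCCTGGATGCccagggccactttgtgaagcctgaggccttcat
Cyp2d9, second probe: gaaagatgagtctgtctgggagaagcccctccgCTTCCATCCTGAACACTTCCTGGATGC

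The RefSeq promoters of Cyp2d9, Cyp2d10 and Cyp2d26 (GRCm38.p6, the 250 bases before the start) are shown because these neighbours were lower together. The motif TATAAA, searched on both strands, lies on the opposite strand in all 3, where it reads TTTATA; it is in capitals and begins 28, 31 and 31 bases before the start. The Cyp2d9 and Cyp2d10 promoters were 82.8% identical over their alignment, while Cyp2d26 was 53.6% identical to Cyp2d9 and 54.4% to Cyp2d10. They lie at chr15:82452127-82452376 (plus strand), chr15:82407195-82407444 (minus strand) and chr15:82794246-82794495 (minus strand).
Cyp2d9: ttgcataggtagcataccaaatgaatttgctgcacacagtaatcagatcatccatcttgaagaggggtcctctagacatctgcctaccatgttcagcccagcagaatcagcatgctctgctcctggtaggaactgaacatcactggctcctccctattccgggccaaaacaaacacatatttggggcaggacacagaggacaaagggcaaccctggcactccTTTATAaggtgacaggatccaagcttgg
Cyp2d10: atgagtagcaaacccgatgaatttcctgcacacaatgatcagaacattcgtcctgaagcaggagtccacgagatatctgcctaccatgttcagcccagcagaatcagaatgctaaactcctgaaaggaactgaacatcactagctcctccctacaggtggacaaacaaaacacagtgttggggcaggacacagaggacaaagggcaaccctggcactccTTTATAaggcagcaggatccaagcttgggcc
Cyp2d26: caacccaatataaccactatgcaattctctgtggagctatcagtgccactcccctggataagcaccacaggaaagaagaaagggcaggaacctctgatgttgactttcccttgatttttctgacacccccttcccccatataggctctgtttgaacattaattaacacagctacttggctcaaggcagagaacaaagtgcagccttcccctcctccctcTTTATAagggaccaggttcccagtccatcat

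The Cyp2c genes, arachidonic acid and drug oxidases, had 5 of 7 lower and none at least 2-fold higher, beside 29.5% and 31.3% of all genes. Cyp2c55 went from 1079 to 246, 3.79-fold lower, and Cyp2c44, which RefSeq names Cyp2c23, from 98.2 to 11.2, 7.62-fold lower. Cyp2c66 and Cyp2c29 were well above background in the control alone, with signals of 147 and 77.7 there, at least 20.3-fold and at least 10.8-fold lower. Cyp2c40, at 19.9 in the control, was at least 2.75-fold lower. With normexp correction Cyp2c29 and Cyp2c40 came within 2-fold and Cyp2c66 had a log2 ratio of -1.55. Cyp2c37 and Cyp2c70 stayed within 2-fold, with log2 ratios of -0.69 and 0.33.

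The other lower genes of family 2 have varied known roles. Cyp2f2, an oxidase of the airway club cell, went from 116 to 7.15, 14.1-fold lower. Cyp2u1, a fatty acid hydroxylase, went from 221 to 39.9, 4.78-fold lower. Cyp2r1, which 25-hydroxylates vitamin D, went from 80.3 to 23.1, 3.00-fold lower, and Cyp2b19, an epoxygenase of skin, from 37.1 to 14.5, 2.22-fold lower. Both came within 2-fold with normexp correction, and Cyp2b19 also when scaled by the probes bright on both arrays.

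In family 3, the Cyp3a drug oxidases, Cyp3a25 went from 61.2 to 7.14 and Cyp3a41a from 32.8 to 7.22, 7.41-fold and 3.93-fold lower. Cyp3a16, at 15.8 in the control alone, was at least 2.18-fold lower. Cyp3a11 was nearly level at 33.9 and 27.9, a log2 ratio of -0.07. All of these Cyp3a signals are dim, and with normexp correction each of the 3 lower genes came within 2-fold.

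The 4 genes of these families that were higher were Cyp2s1, Cyp1b1, Cyp2j6 and Cyp2j9. Cyp1b1 had probes with opposite directions, described below, and with the median over probes 3 genes were higher. Cyp2s1, an extrahepatic oxidase of epithelia, went from 66.6 to 742, 12.9-fold higher. Cyp2j6 and Cyp2j9, of the arachidonic acid epoxygenase subfamily, went from 54.8 to 121 and from 86.2 to 163, 2.55-fold and 2.19-fold higher. Both Cyp2j genes came within 2-fold with normexp correction and with spike-in scaling. The genes well above background on neither array included Cyp1a1, which dioxins induce, and Cyp2e1, which oxidises ethanol.

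**Figure D2:**
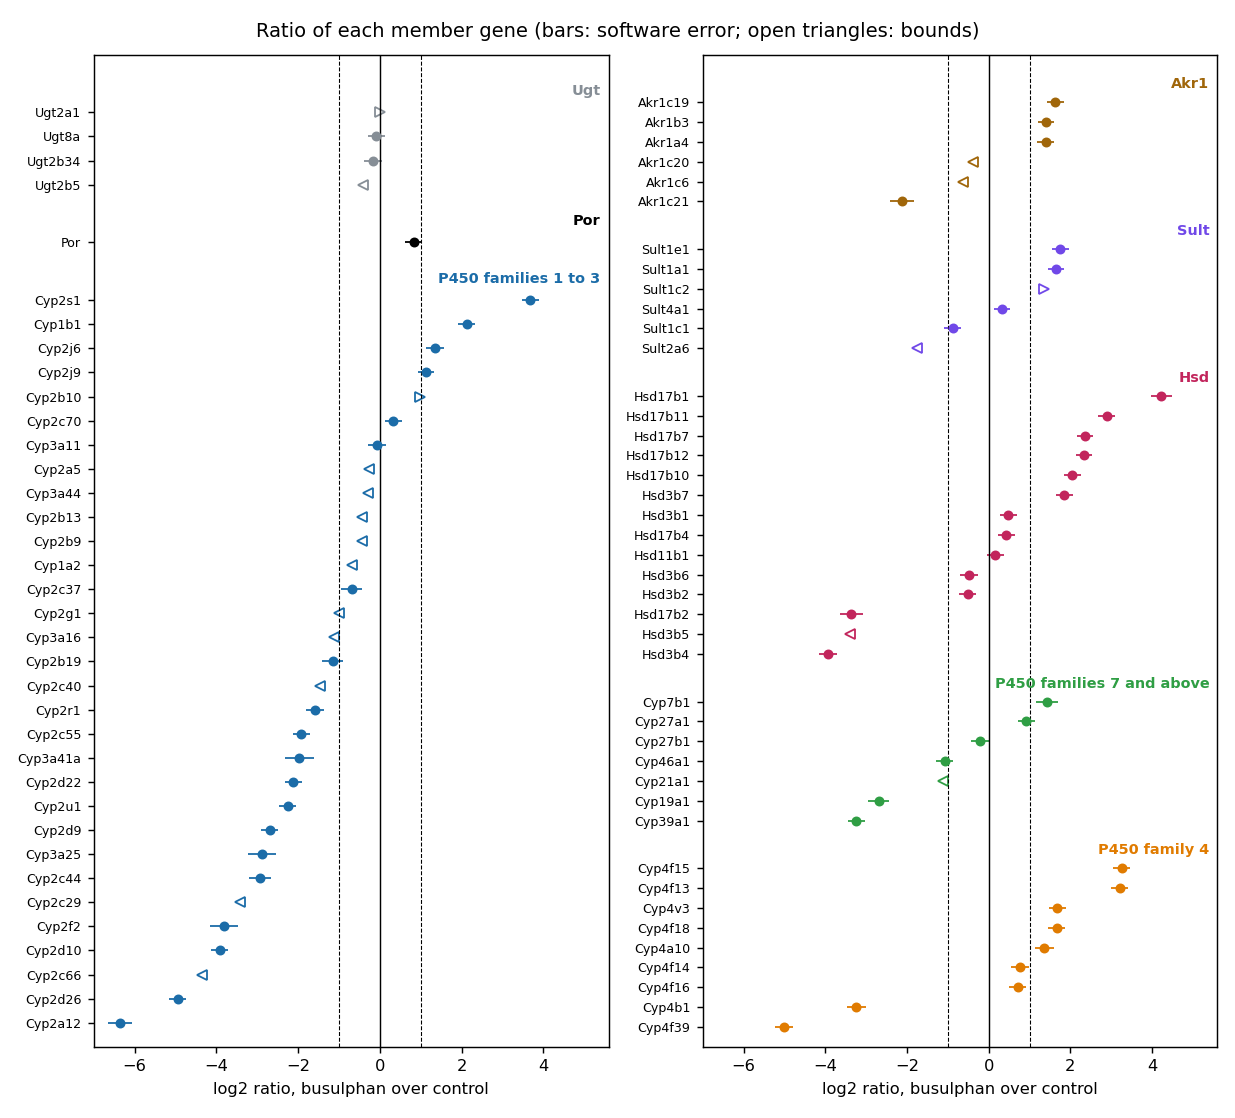
Log2 ratio of busulphan over control for each of the 78 enzyme genes compared, by role, with bars of 1 software error of the ratio and open triangles for bounds, which point away from 0. The dashed lines mark 2-fold. P450 families 1 to 3 have 17 of 31 genes at or below the lower line, and the Hsd17b genes lie mostly above the upper line.

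In family 4, 5 of 9 genes were higher and 2 lower, where 31.3% and 29.5% of all genes were. Its median log2 ratio was 1.36, and 0.48 with spike-in scaling, where 2 were higher and 2 lower. Cyp4f13 and Cyp4f15, of the subfamily that hydroxylates leukotrienes and fatty acids at their end, went from 102 to 813 and from 98.2 to 813, 9.25-fold and 9.56-fold higher. Cyp4f18, which inactivates leukotriene B4 in neutrophils, went from 59.7 to 164 and Cyp4v3, a fatty acid hydroxylase, from 63.0 to 174, 3.18-fold and 3.19-fold higher. Cyp4a10, a target of the fatty acid receptor PPARα, went from 22.8 to 50.6, 2.56-fold higher, and came within 2-fold with normexp correction and with spike-in scaling. This fold rests on 1 probe, as the other Cyp4a10 probes were well above background on neither array.

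Cyp4f39 stood apart from its subfamily. Its signal went from 1221 to 32.7, 32.3-fold lower, while Cyp4f14 and Cyp4f16 had log2 ratios of 0.76 and 0.71, short of 2-fold. Cyp4f39 corresponds to human CYP4F22, which makes very long hydroxy fatty acids for the skin barrier. Cyp4b1, a lung oxidase, went from 202 to 18.5, 9.44-fold lower.

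The promoters of Cyp4f13 (GRCm38.p6, chr17:32947362-32947611, minus strand) and Cyp4f15 (chr17:32685409-32685658, plus strand) are shown because the pair had the highest ratios of the family. The motif CCAAT, found here on the opposite strand, reads ATTGG, is in capitals and begins 76 and 78 bases before the start. The sequences were 55.6% identical over their alignment.
Cyp4f13: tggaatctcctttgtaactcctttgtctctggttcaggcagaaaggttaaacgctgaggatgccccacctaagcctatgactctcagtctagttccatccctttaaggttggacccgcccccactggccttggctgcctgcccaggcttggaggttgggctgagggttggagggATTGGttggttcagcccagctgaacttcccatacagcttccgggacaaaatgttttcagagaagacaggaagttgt
Cyp4f15: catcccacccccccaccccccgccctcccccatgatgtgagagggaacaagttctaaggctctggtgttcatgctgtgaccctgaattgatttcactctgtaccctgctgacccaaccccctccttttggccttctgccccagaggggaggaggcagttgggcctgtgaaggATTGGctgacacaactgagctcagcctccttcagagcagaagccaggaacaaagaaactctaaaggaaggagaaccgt

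Of the sterol, steroid and vitamin D P450 genes (families 7 and above), 7 of 10 were compared, 4 lower and 1 higher. Over all genes 29.5% were lower and 31.3% higher. Cyp39a1 and Cyp7b1 both 7-hydroxylate oxysterols and stood on opposite sides. Cyp39a1 went from 375 to 34.2, 9.47-fold lower, and Cyp7b1 from 15.7 to 36.5, 2.69-fold higher. Cyp19a1, aromatase, which makes oestrogen from androgen, went from 85.8 to 11.4, 6.49-fold lower, and its second probe was well above background in the control alone. Cyp46a1, the cholesterol 24-hydroxylase, went from 75.9 to 31.0, 2.12-fold lower, and Cyp21a1, the adrenal 21-hydroxylase, was at least 2.18-fold lower from 15.7. With normexp correction only Cyp39a1 among these 5 stayed beyond 2-fold. Cyp27a1, the sterol 27-hydroxylase, went from 219 to 358, a log2 ratio of 0.92, while Cyp7a1 and Cyp8b1, which commit and shape bile acids in liver, and Cyp11b2, aldosterone synthase, were well above background on neither array.

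Por, the electron donor of the microsomal P450 enzymes, had signals of 2128 and 3264, a log2 ratio of 0.83 that became -0.06 with spike-in scaling and 1.15 with quantile normalization.

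Of the 7 Hsd17b genes in the set, 5 were at least 2-fold higher, where 31.3% of all genes were. Spike-in scaling and normexp correction left this count at 5, beside 16.2% and 24.6% of all genes. The median log2 ratio of the 7 was 2.33. Hsd17b3, left out of the set by name, was 3.80-fold lower. Hsd17b1, which reduces oestrone to the potent oestradiol, went from 14.7 to 238, 18.7-fold higher. Its control spot is dim, and with normexp correction its log2 ratio of 4.23 became 2.28, below the 2.78 of Cyp2s1. Hsd17b2, which runs that reaction backwards and also oxidises testosterone, went from 131 to 11.0, 10.3-fold lower. These enzymes with opposed activities thus stood on opposite sides in these preparations.

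The other higher Hsd17b genes act largely on lipids. Hsd17b11, a lipid droplet protein, went from 583 to 3740.4, 7.42-fold higher. Hsd17b7, an enzyme of cholesterol synthesis, went from 277 to 1226, and Hsd17b12, of long fatty acid elongation, from 175 to 759.6, 5.12-fold and 5.03-fold higher. Hsd17b10, a mitochondrial enzyme, went from 1016 to 3631, 4.13-fold higher.

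Of 6 Hsd3b genes 2 were lower, 1 was higher and 3 were within 2-fold, beside 29.5% of all genes lower and 31.3% higher. Hsd3b4 and Hsd3b5, 3-ketosteroid reductases of kidney and liver, were lower. Hsd3b4 went from 425 to 24.2, 15.2-fold lower, and Hsd3b5, at 75.6 in the control alone, was at least 10.5-fold lower but within 2-fold with normexp correction. Hsd3b1 and Hsd3b6, which serve steroid synthesis in Leydig cells, were within 2-fold, at 189.7 and 229 for Hsd3b1 and at 61.9 and 38.2 for Hsd3b6. Hsd3b2 had a log2 ratio of -0.51. Hsd3b7, of bile acid synthesis, went from 285 to 891, 3.61-fold higher. Hsd11b1, which regenerates active glucocorticoid, was level at 42.7 and 41.4, and Hsd11b2, which inactivates it, was well above background on neither array.

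Among the conjugating enzymes, 3 of 6 Sult genes compared were higher and 1 was lower, whereas none of 4 Ugt genes compared reached 2-fold. Over all genes 31.3% were higher and 29.5% lower. With spike-in scaling 2 Ugt genes were lower, and with measured values in place of bounds 1 was. Sult1e1, the oestrogen sulfotransferase, went from 160 to 469, 3.38-fold higher. Sult1a1, the phenol sulfotransferase, went from 454 to 1232, 3.13-fold higher. Sult1c2, at 16.6 after busulphan alone, was at least 2.56-fold higher, and Sult2a6, of the hydroxysteroid sulfotransferases, at 24.3 in the control alone, was at least 3.36-fold lower. Both came within 2-fold with normexp correction. With spike-in scaling none of the 6 Sult genes was 2-fold higher. Of the 7 Ugt genes on the array 3 were well above background on neither, Ugt1a1, the bilirubin enzyme, among them, and Ugt8a, which makes galactosylceramide, had a log2 ratio of -0.09.

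Of the Akr1 genes 3 of 6 were higher and 1 lower, beside 31.3% and 29.5% of all genes. Among the 3 is Akr1c19, whose probes had opposite directions, as described below. With the median over probes 2 of 6 were higher. None of the Akr1 genes was 2-fold higher with spike-in scaling. Akr1b3, aldose reductase, which turns glucose into sorbitol, went from 14069 to 32113, and Akr1a4, an aldehyde reductase that RefSeq names Akr1a1, from 3058 to 6969, 2.64-fold and 2.63-fold higher. Akr1c21, a steroid 3(17)α-dehydrogenase, went from 44.4 to 8.82, 4.36-fold lower, and came within 2-fold with normexp correction. Akr1c18, which inactivates progesterone, was well above background on neither array.

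For 8 of the enzyme genes a pair of probes was well above background on both arrays, and in 3 of these pairs the probes differed by at least 2-fold in their ratio, 37.5%. Over all genes the share was 38.3% of 3706 pairs. Cyp1b1, which hydroxylates oestradiol and procarcinogens, had opposite directions. The brighter probe, used for the gene, went from 342 to 1292, 4.37-fold higher, and the other from 991 to 63.9, a log2 ratio of -3.75. Akr1c19, a hydroxysteroid oxidase, had probes at 612 and 1639 and at 438 and 49.6, log2 ratios of 1.63 and -2.93. For Hsd17b11 the second probe was level, at 320.4 and 287. The direction given for Cyp1b1 and Akr1c19, and the size for Hsd17b11, therefore belong to 1 probe.

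The first 30 bases of each probe of these 3 genes are shown so that the transcript part each one reads can be looked up. The probe used for the gene comes first. The files assign both probes of Akr1c19 and of Hsd17b11 to 1 transcript record each, and the second Cyp1b1 probe to another record than the first. On mm9 the paired probes lie 5.629 kb apart for Cyp1b1, 9.267 kb for Akr1c19 and 2.713 kb for Hsd17b11, and the files do not say whether they lie in coding or untranslated exons.
Cyp1b1, log2 ratio 2.13, chr17:80106547-80106606, minus strand: actacattaagcagatagatcaccatgtat
Cyp1b1, log2 ratio -3.75, chr17:80100918-80100977, minus strand: cccctggtggaaaacagactcaggtcaaaa
Akr1c19, log2 ratio 1.63, chr13:4238234-4238293, plus strand: tgcaggattggtcaagtccattggtgtgtc
Akr1c19, log2 ratio -2.93, chr13:4247501-4247560, plus strand: cttcagccagagctgtgtccaccagtccgg
Hsd17b11, log2 ratio 2.89, chr5:104419127-104419186, minus strand: atcaccaggttttcagagcttgtactgtcg
Hsd17b11, log2 ratio 0.05, chr5:104421840-104421899, minus strand: cctcactgagaagcaaatgattttcgttcc

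**Figure D3:**
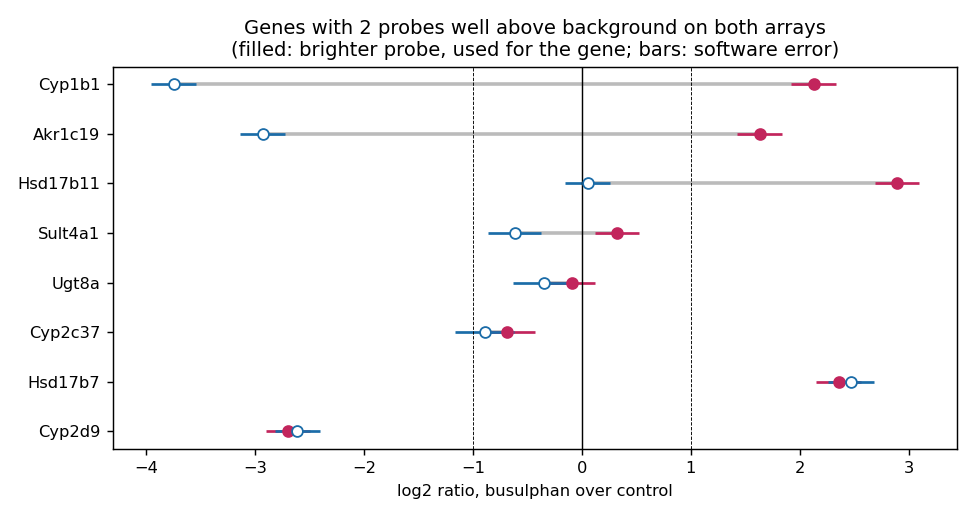
Log2 ratio of busulphan over control for both probes of the 8 enzyme genes with 2 probes well above background on both arrays (filled for the brighter probe, used for the gene; open for the other; bars of 1 software error). The probes of Cyp1b1 and Akr1c19 lie on opposite sides of 0 and beyond 2-fold, and those of Hsd17b7 and Cyp2d9 nearly coincide.

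Many of these genes sit in tandem rows, and 10 rows of at least 3 genes with no gap over 1 Mb were found by probe position. In the Cyp2d row on chromosome 15 all 4 genes were lower, where 29.5% of all genes were. The Cyp2c row on chromosome 19 had 4 lower and none higher of 6 compared, and the Cyp3a row on chromosome 5 had 3 lower and none higher of 5. In the Hsd3b row at chr3:98303072-98656389 (mm9) Hsd3b4 and Hsd3b5, next to each other, were lower and the remaining 3 within 2-fold.

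Other rows held neighbours with opposite ratios. In the Cyp4f row, chr17:32629616-33062650 (mm9), Cyp4f39 at one end was 32.3-fold lower while Cyp4f15 and Cyp4f13 were higher. In the Cyp2 row on chromosome 7, chr7:26587504-27918629 (mm9), Cyp2s1 at one end was 12.9-fold higher, and Cyp2a12 and Cyp2f2 at the other were lower. In a row on chromosome 4, Cyp4a10 was 2.56-fold higher and Cyp4b1 9.44-fold lower. In a search for identical runs of at least 15 bases between probes of different enzyme genes, those of Cyp2a4 and Cyp2a5 shared 28 bases. They could take each other's signal. Probes were not compared with the transcripts of related genes, so the search cannot show whether other probes take signal from relatives. Cyp2a4 was well above background on neither array and Cyp2a5 in the control alone.

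**Figure D4:**
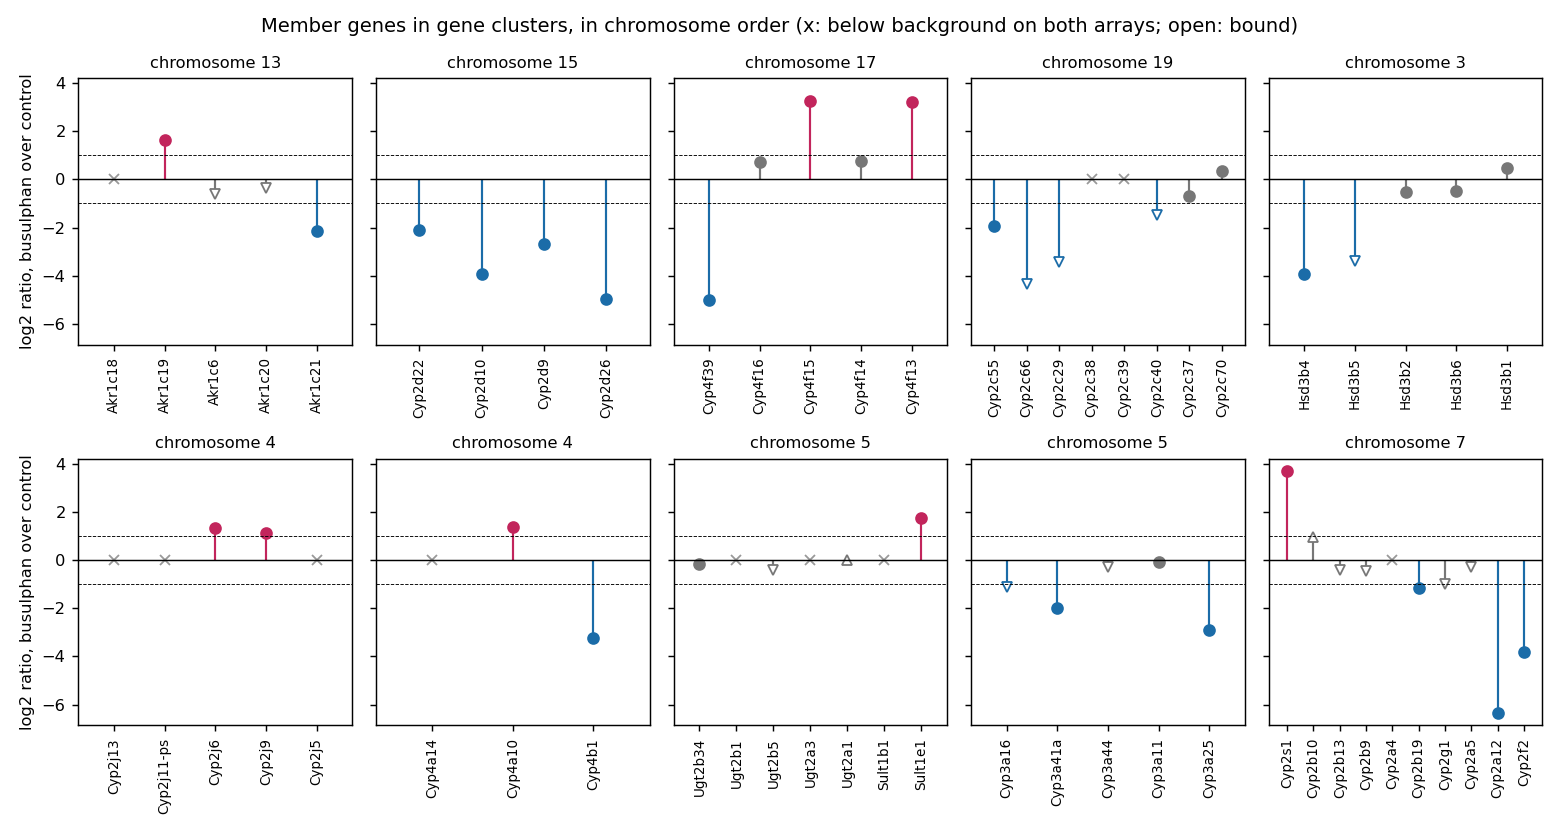
Log2 ratio of busulphan over control for the genes of 10 rows, in chromosome order at even spacing (blue, at least 2-fold lower; red, at least 2-fold higher; grey, within 2-fold; open, bound; cross, well above background on neither array). The Cyp2d row is lower throughout, while the Cyp4f row and the chromosome 7 row hold genes on both sides.

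RefSeq promoters (GRCm38.p6) were matched by symbol for 81 of the 99 enzyme genes, 92 promoters in all, and the 250 bases before the start were searched on both strands. TATAAA stood in 28.3% of the enzyme promoters and 12.4% of all 32851 promoters. It stood in 12 of the 26 promoters of the lower enzyme genes, 46.2%, in none of the 18 promoters of the higher ones and in 29.6% of those within 2-fold. Over all genes compared the shares were 9.36% for lower and 8.65% for higher genes. CCAAT stood in 61.1% of the promoters of the higher enzyme genes, 48.1% of those within 2-fold, 42.3% of the lower and 33.8% of all promoters. Over all genes compared its shares were 34% for higher and 34.4% for lower genes. GCGTG, the core that the dioxin receptor binds, stood in 20.7% of the enzyme promoters and 28.2% of all, and AAGGTCA, a nuclear receptor half-site, in 7.61% and 4.08%. Median GC content was 53.4% for the higher enzyme genes, 50% for those within 2-fold and 44.4% for the lower. Over all genes compared it was 59.6% for higher and 57.2% for lower genes. A motif match describes the letters and not a bound site. Several of the lower genes are close relatives, so their promoters are not independent.

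**Figure D5:**
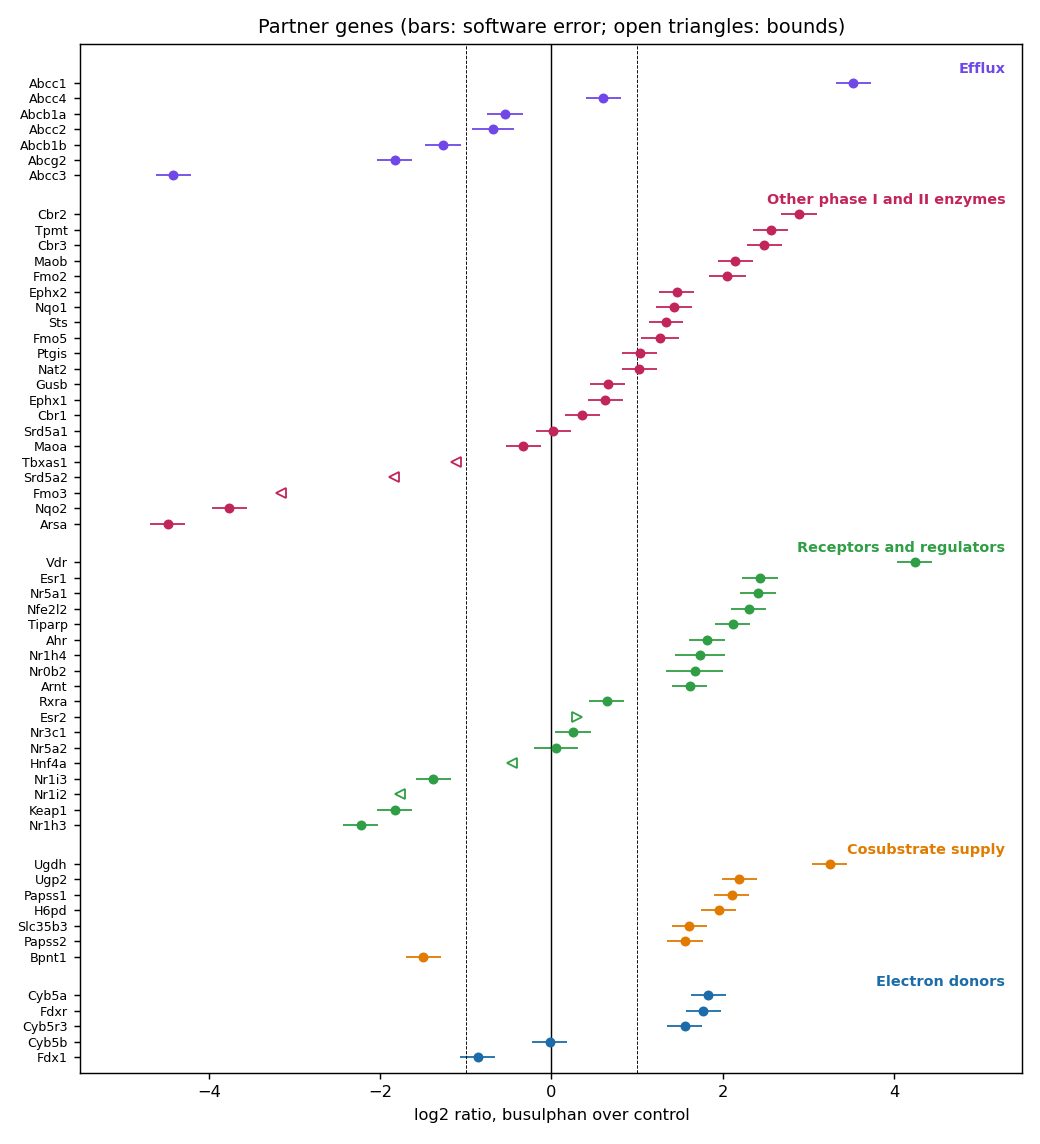
Log2 ratio of busulphan over control for genes that supply, regulate or work beside the enzymes, by list, for the genes reported here, with bars of 1 software error and open triangles for bounds; dashed lines mark 2-fold. Of the 7 cosubstrate genes 6 lie above the upper line, and Abcc3, Arsa and Nqo2 lie far below the lower line.

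Genes that feed electrons and cosubstrates to these enzymes are read here, list by list, against the 31.3% of all genes that were higher and the 29.5% that were lower. Of 5 electron donor genes 3 were higher and none lower. The median of these 5 was 1.56 on the log2 scale. Cyb5a, cytochrome b5, went from 1620 to 4979, and its reductase Cyb5r3 from 1725 to 4396, 3.55-fold and 2.94-fold higher. A dimmer Cyb5r3 probe had a log2 ratio of 0.68. Fdxr, the reductase that serves mitochondrial P450 enzymes, went from 1647 to 4878, 3.42-fold higher, while its partner Fdx1 had probes with log2 ratios of -0.86, used for the gene, and 1.33. The log2 ratios of Cyb5a, Cyb5r3 and Fdxr were 1.83, 1.56 and 1.78. A shift of -0.88, as spike-in scaling gave the median of all genes, would bring all 3 within 2-fold.

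Of 7 cosubstrate genes 6 were higher and 1 lower. Their log2 ratios had a median of 1.95. Ugdh and Ugp2, which make the UDP-glucuronic acid that Ugt enzymes use, went from 265 to 2180.0 and from 196 to 775, 9.51-fold and 4.57-fold higher. Papss1 and Papss2, which make the sulfate donor of the Sult enzymes, were 4.30-fold and 2.95-fold higher, at 350.1 and 1302 and at 40.0 and 102. H6pd, which supplies NADPH to Hsd11b1, was 3.87-fold higher, from 731 to 2447. Bpnt1, which clears the used sulfate donor, was 2.82-fold lower by its brighter probe, and its other probe had a log2 ratio of 1.01.

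Of 19 receptors and regulators 10 were higher, 4 lower and 5 within 2-fold, beside 31.3% of all genes higher and 29.5% lower. The log2 ratios of the 19 had a median of 1.61. Vdr, the vitamin D receptor, went from 150.4 to 2459, 18.9-fold higher. Nfe2l2, the activator of antioxidant genes, went from 1667 to 7124 and its inhibitor Keap1 from 5822 to 1415, 4.94-fold higher and 3.56-fold lower. Ahr, the dioxin receptor, went from 53.5 to 163, 3.53-fold higher. The foreign compound receptors Nr1i3 and Nr1i2 were lower, 2.60-fold from 774 to 258 and at least 3.41-fold from 24.6. Probes of Arnt (log2 ratios from -0.66 to 2.44), Esr1 (2.43, and a bound of -2.74) and Rxra (0.64 and -4.29) disagreed. Nr5a1, also counted among the Leydig markers, was 5.31-fold higher.

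Of 22 other enzymes of the same pathways 12 were higher and 5 lower, beside 31.3% and 29.5% of all genes. The log2 ratios of the 22 had a median of 1.03. Cbr2, a carbonyl reductase, went from 39.2 to 251, 7.41-fold higher, and Tpmt, which methylates thiopurines, from 129 to 659, 5.90-fold higher. Arsa, an arylsulfatase, went from 37232 to 1446, 22.3-fold lower, and Nqo2, a quinone reductase, from 11652.5 to 742, 13.6-fold lower. Of 7 efflux pumps 1 was higher and 3 lower. Abcc1, which exports glutathione conjugates, went from 738 to 7349.6, a log2 ratio of 3.53, whereas Abcc3, which exports glucuronides, went from 8188 to 332, 21.3-fold lower, and Abcg2, which exports sulfated steroids, from 3257 to 793, 3.55-fold lower.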

How the data were processed

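Total RNA of 1 control and 1 busulphan preparation was labelled with Cy3, and the scanned images were turned into the deposited intensity values by Agilent's Feature Extraction software, with background subtraction (version 11.5.1.1, as given per the file headers). The deposited log2 table equals log2 of that processed signal minus a constant per array, 10.03 (control) and 9.82 (busulphan), and was used as an alternative. From the signals, log2 values minus each array's 75th percentile were computed in Python 3.11.15 over 15208 probes without 4 marked outliers. A gene took the brightest of its probes that were well above background on either array, and genes with no such probe got no fold. Bounds compare the bright array with a floor on the dim one, its lowest signal well above background or the probe's own if larger; the lowest such signals were 7.50 (control) and 6.26 (busulphan). No enzyme probe was saturated. Names of the enzymes are the files'; 124 of 131 probes matched RefSeq. Coordinates of probes are mm9 per the files and those of promoters GRCm38.p6.

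All enzyme genes may be named; signals are given for those at least 2-fold apart, the 5 brightest per array and those with disagreeing probes. The members were taken by a rule on names alone, but that rule, the lists and the alternatives were chosen with earlier results of these data known. Counting was checked on simulated data with large changes at bright probes alone. This did not cover changes at dim probes, ratios near 2-fold or the choice of 1 probe per gene. Alternatives used limma 3.58.1 in R 4.3.3 (normexp with an offset of 50, quantile, loess), other scalings, filters and thresholds. Some genes of the lists are counted but not reported here. The precision is limited by 1 array per group.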

Additional observations from a re-analysis of the deposited data

How the results depend on the processing

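Across 14 settings, 23 of the 50 enzyme genes called kept their side of 2-fold and 27 came within 2-fold in at least 1. With normexp correction 15 genes were lower and the median log2 ratio was 0, and 18 called genes came within 2-fold. With spike-in scaling 9 genes were higher, 43 lower and the median was -1.21, and 13 called genes came within 2-fold; its median over all genes moved by -0.88. Without scaling that median moved by -0.20, with median scaling by -0.17, with a 75th percentile over only those probes bright in both groups by 0.17 and with quantile normalization by 0.12. Enzyme genes well above background on both arrays had a median of 0.16, beside 0.14 over all such genes. Measured values in place of bounds gave -0.60, beside 0.07 over all genes. At 4-fold 9 genes were higher and 19 lower of 78, beside 14.4% and 17.7% of all genes. With the median over probes Akr1c19 turned to -0.65 and Cyp1b1 to -0.81. The causes were not tested beyond what each setting changes by construction. A fold whose dim spot lies just above background is measured but open to the background correction. No paired analysis was possible because each group has 1 array and no result comes from a test.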

Other observations

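Among the related genes left out of the set by name, Cyp51, which demethylates lanosterol in cholesterol synthesis, had a pair of probes with opposite ratios, 925 to 87.6 (log2 ratio -3.19) and 35.4 to 116 (1.92). Akr1b7, a lipid aldehyde reductase, went from 12.03 to 186, 17.8-fold higher, while Hsd17b3, which makes testosterone, went from 107 to 24.3, 3.80-fold lower. Cyp17a1, which makes androgen precursors, was at 566 and 414, within 2-fold.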
